A study of Procambarus virginalis with 3 samples.

Results

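The genes described here were higher in 1 of 3 hemocyte RNA-seq libraries of the marbled crayfish, the library hem40, than in the 2 others, hem37 and hem39. A gene model was a member when its expected count in hem40, after adding 0.5 and dividing by the library total, was more than 5 times that in hem37 and more than 5 times that in hem39 and its mean count over the 3 libraries was 10 or more. Of 21773 gene models, 16140 passed this minimum, and 59 of these (0.366%) were members. The members were thus selected on the measured counts, so their levels and ratios are a description with no test.

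The study profiled marbled crayfish (Procambarus virginalis), a freshwater crayfish that reproduces by parthenogenesis. All 3 libraries carry the same labels: hemocytes from pooled wild catches of 1 lake, Reilingen, with RNA taken up in Trizol, treated with DNase and made into libraries with a TruSeq kit. No label sets hem40 apart by treatment, age, genotype or date, and none says how many animals went into a library. The libraries form 1 group, so differences between them measure a spread that may be technical or biological, and these cannot be told apart. In such bulk RNA, more cells of a type and more RNA per cell cannot be told apart either.

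Hemocytes are the circulating blood cells of crustaceans. They take up and enclose foreign particles, take part in clotting and release the enzymes of melanisation, the chief arms of crustacean innate immunity. The files name each gene by an identifier from genome annotation and pair it with no gene symbol, so no role can be given to a member, and the hemocyte label could not be checked against marker genes. The identifier does carry the genomic scaffold and the kind of model. Names starting with "maker" are models that the MAKER annotation pipeline built, either on predictions of the gene finder SNAP or from aligned transcripts (exonerate_est2genome) or aligned proteins (exonerate_protein2genome). Names starting with "snap" or "snap_masked" hold SNAP predictions on the plain or the repeat-masked sequence, and "evm" stands for EVidenceModeler, which combines several kinds of evidence.

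The summed expected counts were 21143354 in hem40, 18986789 in hem37 and 17367967 in hem39. By the same ratios, hem39 alone was higher for 61 models (0.378% of those that passed the minimum), and hem37 alone for 6 (0.0372%). In the opposite direction, both other libraries were more than 5 times hem40 for 36 models (0.223%). Over all models that passed the minimum, the median log2 ratio was 0.04 for hem40 over hem37 and 0.23 for hem40 over hem39 with library totals. The members' median log2 ratios on the same scale were 4.56 and 3.99. The shift against hem39 shrank to 0.03 with TMM scaling, where the members' medians were 4.52 and 3.79.

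At the threshold, maker-scaffold88766-snap-gene-0.0 lay just inside, with expected counts of 431 in hem40, 31 in hem37 and 69 in hem39 and a smaller ratio of 5.10. The next member inside, maker-scaffold913-snap-gene-0.0, had 33.58 in hem40, 5.48 in hem37 and 0 in hem39 and a smaller ratio of 5.12. Just outside were maker-scaffold79172-snap-gene-0.35, with 47.81 in hem40, 8.19 in hem37 and 7.17 in hem39 (smaller ratio 4.99), and snap_masked-scaffold18599-processed-gene-0.18, with 812 in hem40, 149 in hem37 and 121 in hem39 (smaller ratio 4.88). Here the smaller ratio is the lower of the ratios of hem40 over each other library. Of the 59 members, 32 had a mean count under 10 over hem37 and hem39 alone and passed the minimum only through hem40.

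Most members were modest in level, and a few were abundant. In TPM, which scales counts by transcript length and library so that levels can be compared between genes, the members' median was 6.22 in hem40, 0.07 in hem37 and 0.27 in hem39. Over all models that passed the minimum, the median was 12.15 TPM in hem40, 11.23 TPM in hem37 and 9.65 TPM in hem39. In hem40 the members spanned 0.27 to 1454.92 TPM: 5 were at 200 TPM or more, 2 lay between 100 and 200, 18 between 10 and 100, 22 between 1 and 10, and 12 below 1. Thus 22 of the 59 reached the median of all models that passed the minimum, and 14 reached its upper quartile of 33.895 TPM.

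Together the members took 0.731% of the expected counts in hem40, 0.107% in hem37 and 0.0510% in hem39. This share rested on few models: 3 of them held 81.9% of the members' counts in hem40, and the 56 others made up 0.133% of that library. The smaller ratio had a median of 11.0 (quartiles 6.43 and 20.5, range 5.10 to 351), against 0.963 over all models that passed the minimum. It lay between 5 and 10 for 27 members and between 10 and 20 for 17, and it exceeded 20 for 15. For a member with no count in another library the ratio depends on the added count. With expected counts of 0 set at a floor of 3 counts per library, the median smaller fold was 9.86.

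**Figure D1:**
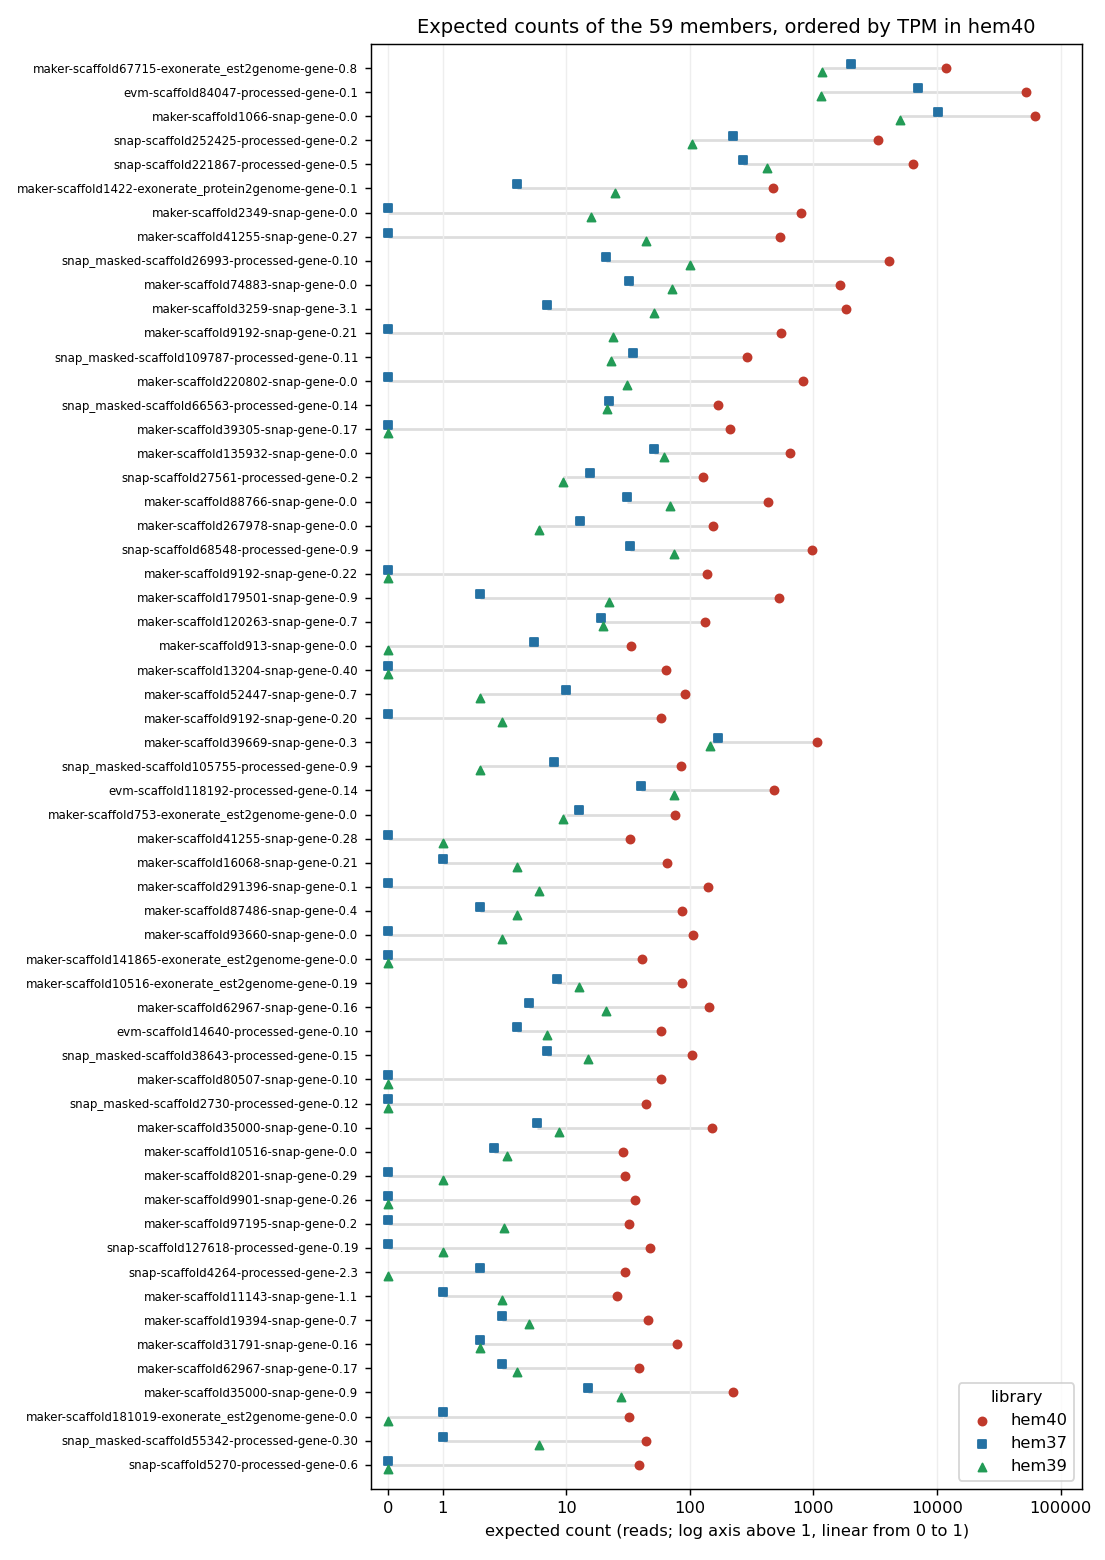
Expected count of each of the 59 members on a logarithmic axis that is linear near 0, with members listed down the page by their level in hem40 and 1 marker per library (hem40, hem37, hem39). The hem40 markers span 26 to 62448 reads, and the markers of the other libraries lie to their left, with 19 members at 0 in hem37 and 11 at 0 in hem39.

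The member with the highest level was maker-scaffold67715-exonerate_est2genome-gene-0.8, a 423-base model built from aligned transcripts. It had 11728 reads (1454.92 TPM) in hem40, 2004 reads (268.03 TPM) in hem37 and 1165 reads (167.18 TPM) in hem39. It ranked 111 among all models by TPM in hem40 and was well counted in all 3 libraries. Relative to library totals it was 5.26-fold higher in hem40 than in hem37 (95% exact interval of the count ratio 5.01 to 5.51) and 8.27-fold higher than in hem39 (7.79 to 8.79). Such intervals cover counting error only, because reads carry no molecular identifiers and each library was made once. The floors used here leave out the counting error of the hem40 count.

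The model evm-scaffold84047-processed-gene-0.1 had 52348 reads (753.21 TPM) in hem40, 6966 reads (108.06 TPM) in hem37 and 1144 reads (19.04 TPM) in hem39. Its 3 libraries were far apart from each other, with hem37 well above hem39. In hem40 it was 6.75-fold higher than in hem37 (interval 6.58 to 6.92) and 37.6-fold higher than in hem39 (35.4 to 39.9). The largest count among the members was that of maker-scaffold1066-snap-gene-0.0, a 3990-base model, with 62448 reads (733.43 TPM) in hem40, 10180 reads (128.90 TPM) in hem37 and 4970 reads (67.52 TPM) in hem39. It was 5.51-fold higher in hem40 than in hem37 (5.39 to 5.63) and 10.3-fold higher than in hem39 (10.03 to 10.63).

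The next 2 members by level were SNAP predictions. The model snap-scaffold252425-processed-gene-0.2 had 3332 reads (265.83 TPM) in hem40, 223 reads (19.18 TPM) in hem37 and 105 reads (9.69 TPM) in hem39. It was low in both other libraries, by 13.4-fold in hem37 (11.7 to 15.4) and 26.1-fold in hem39 (21.5 to 32.0). The model snap-scaffold221867-processed-gene-0.5 had 6381 reads (254.76 TPM) in hem40, 270 reads (11.62 TPM) in hem37 and 422 reads (19.49 TPM) in hem39. Here the order of the other libraries was turned, with hem40 21.2-fold above hem37 (18.8 to 24.1) and 12.4-fold above hem39 (11.3 to 13.7). These 5 models held 78.1% of the members' summed TPM in hem40, and the RSEM interval of each in hem40 lay above those in both other libraries.

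Several of the next members by level, picked here after their values were seen, had a larger smaller ratio than any of these 5. The model snap_masked-scaffold26993-processed-gene-0.10, of 2562 bases, had 4083 reads (75.21 TPM) in hem40, 21 reads (0.42 TPM) in hem37 and 100 reads (2.13 TPM) in hem39, 175-fold higher in hem40 than in hem37 and 33.5-fold higher than in hem39. The model maker-scaffold3259-snap-gene-3.1 had 1818 reads (64.66 TPM) in hem40, 7 reads (0.27 TPM) in hem37 and 51 reads (2.10 TPM) in hem39. The model maker-scaffold74883-snap-gene-0.0 had 1643 reads (70.01 TPM) in hem40, 32 reads (1.47 TPM) in hem37 and 72 reads (3.55 TPM) in hem39. In each of these hem37 was the lowest library, and RSEM gave none of them shared reads in hem40. The only member built from aligned proteins, maker-scaffold1422-exonerate_protein2genome-gene-0.1, followed the same order, with 471 reads (104.78 TPM) in hem40, 4 reads (0.96 TPM) in hem37 and 25 reads (6.43 TPM) in hem39.

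**Figure D2:**
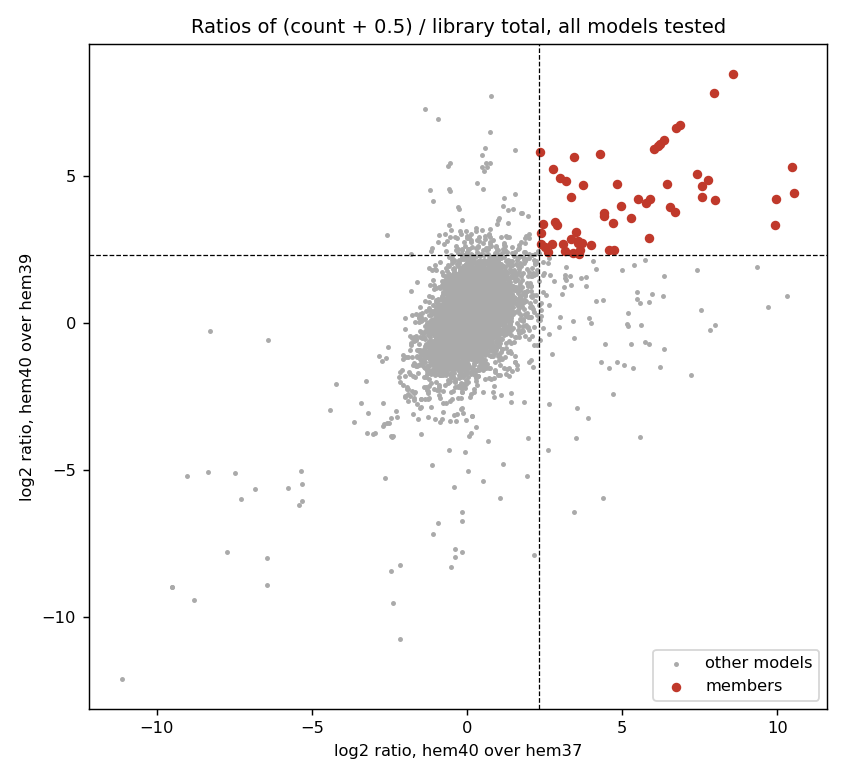
Log2 ratio of hem40 over hem37 (horizontal axis) against log2 ratio of hem40 over hem39 (vertical axis) for the 16140 models that passed the minimum, with the 59 members in red and dashed lines at the threshold of 5-fold. The members are the points beyond both lines because the rule placed them there, and the bulk of models lies around 0 on both axes.

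Some members were not counted at all outside hem40. Of the 59, 19 were listed at 0 in hem37 (32.2%, against 0.322% of all models that passed the minimum) and 11 at 0 in hem39 (18.6%, against 0.192%). A high ratio favours counts of 0 in the other libraries, so nothing is read from these shares. There were 8 members at 0 in both other libraries, 11 at 0 in hem37 only and 3 at 0 in hem39 only, and 37 were counted in all 3 libraries.

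The 8 members at 0 in both had 36 to 213 reads in hem40. For 4 of them RSEM gave no shared reads in hem37 and hem39. With a floor of 3 counts per library these were 9.86-fold to 58.3-fold higher in hem40. The lower ends of the exact intervals, which include the error of the hem40 count, were below these floors. For maker-scaffold9901-snap-gene-0.26, at 9.86-fold, the lower end was 7.61 against hem39. The 4 others had a posterior SD above 0 in hem37 or hem39, so the floor gives no firm bound for them. Taking posterior mean counts, a choice made after seeing the data, their log2 smaller ratios were 4.88 for maker-scaffold9192-snap-gene-0.22, 2.47 for maker-scaffold13204-snap-gene-0.40, 1.63 for snap_masked-scaffold2730-processed-gene-0.12 and 0.68 for maker-scaffold141865-exonerate_est2genome-gene-0.0. The most counted of the 8 was maker-scaffold39305-snap-gene-0.17, a 370-base model with 213 reads (30.80 TPM) in hem40, 0 in hem37 and 0 in hem39. At the floor it was 58.3-fold higher in hem40 than in hem39 and 63.8-fold higher than in hem37. The lower ends of its exact intervals were 47.0 against hem39 and 51.4 against hem37. RSEM gave it no shared reads in any library.

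The 11 members at 0 in hem37 only had 30 to 824 reads in hem40 and 1 to 44.08 in hem39. At the floor of 3 counts they were 8.98-fold to 247-fold higher in hem40 than in hem37. The exact intervals of the models at these ends began lower, at 6.86 and 200. Against hem39 the members of this group were 8.37-fold to 40.8-fold higher in hem40. At the upper end, maker-scaffold220802-snap-gene-0.0, singled out after its values were seen, had 824 reads in hem40, 0 in hem37 and 31 in hem39. The model maker-scaffold2349-snap-gene-0.0, also singled out in this way, had 795 reads in hem40, 0 in hem37 and 16 in hem39. Both were thus present in hem39 at a low count while no read was counted in hem37. The 3 members at 0 in hem39 only were weakly counted throughout, with 30 to 33.58 reads in hem40 and 1 to 5.48 in hem37.

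The rule set no order between the other libraries. The 8 members at 0 in both give no order, which leaves 51 members. Relative to library totals, hem39 was above hem37 for 37 of these 51 (72.5%), against 35.8% of all models that passed the minimum. Both shares depend on the scaling. With library totals the median log2 ratio of all these models was 0.23 for hem40 over hem39, and with TMM scaling it was 0.03. The shares with TMM scaling were not computed, so the size of the gap is not read further. Among the 37 members counted in all 3 libraries, hem39 was above hem37 for 26. The other libraries lay within a factor of 2 of each other for 21 of the 51 (41.2%), against 87.1% of all models that passed the minimum. They were over 5 times apart for 14 members. In 12 of these hem39 was the higher, and 8 of the 12 were at 0 in hem37. In the remaining 2, evm-scaffold84047-processed-gene-0.1 and maker-scaffold913-snap-gene-0.0, hem37 was the higher. Many members had few counts in both libraries, and the part of counting error in this spread was not tested.

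The 59 members lay on 53 scaffolds. More than 1 member was held by 5 scaffolds, with 11 members in all (18.6%). Of these, scaffold9192 held 3, and scaffold41255, scaffold35000, scaffold62967 and scaffold10516 held 2 each. Some reads were divided between maker-scaffold9192-snap-gene-0.21 and maker-scaffold9192-snap-gene-0.22, and between the 2 members on scaffold10516, as described below. The counts within each of these pairs are thus not fully separate. No like share for 59 other models was computed, so 18.6% is not called low or high. With TMM or DESeq2 scaling, maker-scaffold62967-snap-gene-0.16 and maker-scaffold10516-exonerate_est2genome-gene-0.19 were no longer members, which ended the pairs on those scaffolds and left 13.7% of members on shared scaffolds. Another 20 members (33.9%) had no other model that passed the minimum on their scaffold, which was so for 38.3% of all models that passed it. The files give no position within a scaffold, so distances between members are unknown.

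On scaffold9192, 3 short models built on SNAP predictions were members. The model maker-scaffold9192-snap-gene-0.21, of 459 bases, had 551.24 reads (62.37 TPM) in hem40, 0 in hem37 and 24 reads (3.14 TPM) in hem39. The model maker-scaffold9192-snap-gene-0.22, of 439 bases, had 136.76 reads (16.27 TPM) in hem40, 0 in hem37 and 0 in hem39. The model maker-scaffold9192-snap-gene-0.20, of 453 bases, had 58 reads (6.66 TPM) in hem40, 0 in hem37 and 3 reads (0.40 TPM) in hem39. All 3 were thus at 0 in hem37, and gene-0.21 had the highest level in both hem40 and hem39. Against hem39 the first was 18.9-fold higher in hem40 (12.5 to 29.7) and the third 15.9-fold (5.17 to 79.2). The second had a posterior mean of 3.39 reads in hem39 despite its expected count of 0.

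The pair on scaffold41255 was also at 0 in hem37. The model maker-scaffold41255-snap-gene-0.27 had 541.35 reads (80.80 TPM) in hem40, 0 in hem37 and 44.08 reads (7.61 TPM) in hem39, a 10.1-fold difference from hem39 (7.42 to 14.1). The model maker-scaffold41255-snap-gene-0.28 had 33 reads (4.88 TPM) in hem40, 0 in hem37 and 1 read (0.17 TPM) in hem39, a 27.1-fold difference whose interval, 4.54 to 1103, is wide because it rests on 1 read. These models were 360 and 363 bases long.

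The pairs on the remaining scaffolds were longer and lower. On scaffold35000, maker-scaffold35000-snap-gene-0.10 had 150.21 reads (1.23 TPM) in hem40, 5.85 (0.05 TPM) in hem37 and 8.69 (0.08 TPM) in hem39, and maker-scaffold35000-snap-gene-0.9 had 224.97 reads (0.42 TPM) in hem40, 15 (0.03 TPM) in hem37 and 27.63 (0.06 TPM) in hem39. At 24632 bases the second was the longest of all models that passed the minimum, so its many reads made a low level per length. On scaffold62967, maker-scaffold62967-snap-gene-0.16 had 144 reads in hem40, 5 in hem37 and 21 in hem39, and maker-scaffold62967-snap-gene-0.17 had 39 in hem40, 3 in hem37 and 4 in hem39. On scaffold10516, maker-scaffold10516-exonerate_est2genome-gene-0.19 had 86.98 reads in hem40, 8.40 in hem37 and 12.68 in hem39, and maker-scaffold10516-snap-gene-0.0 had 29.02 in hem40, 2.60 in hem37 and 3.32 in hem39. All of these were counted in every library and were lowest in hem37. The last was the only member with more than 1 transcript, at 2.

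**Figure D3:**
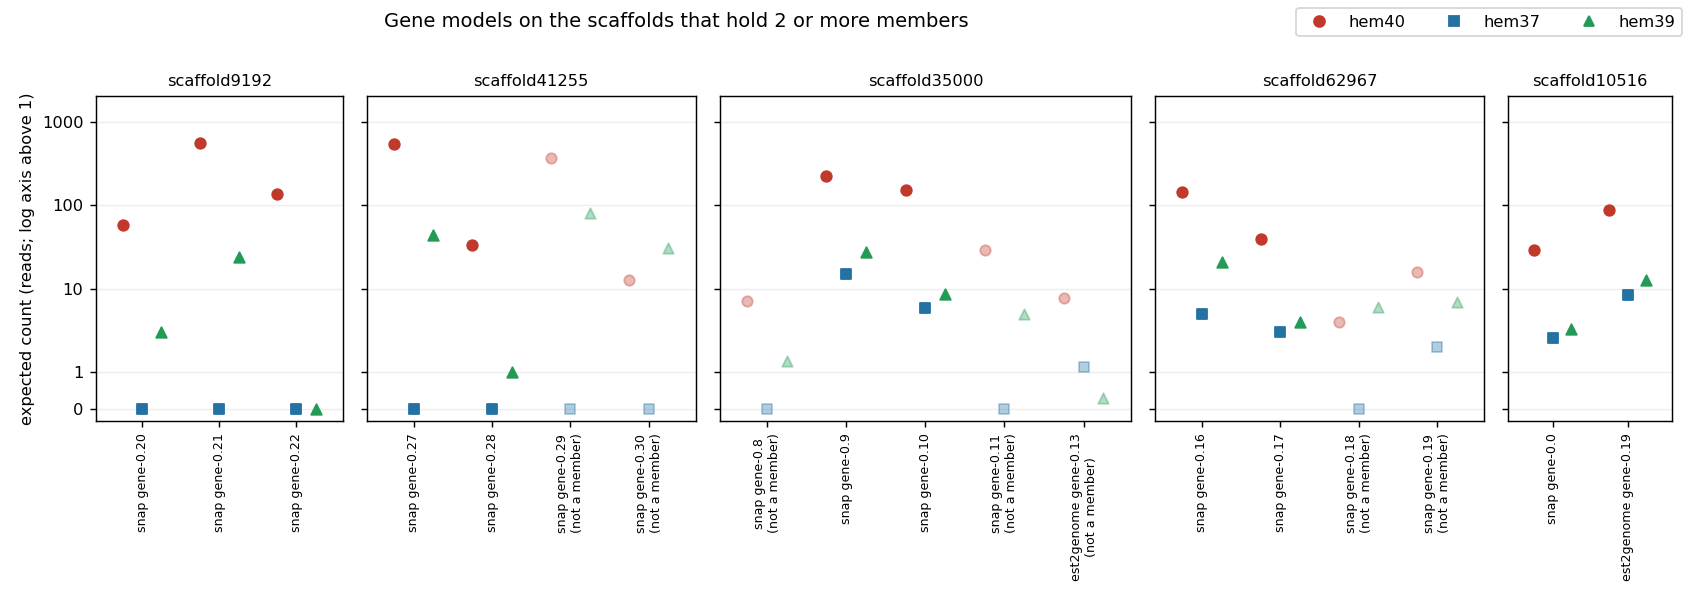
Expected count in hem40, hem37 and hem39 (logarithmic axis above 1) for every gene model on the 5 scaffolds that hold 2 or more members, with members in full colour and other models, including those below the minimum, in pale colour. All members of scaffold9192 and scaffold41255 are at 0 in hem37, as are both other models on scaffold41255.

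On the members' scaffolds, the non-members mostly had smaller ratios close to those of all models. Any neighbour that met the rule is itself a member and is left out here. The 53 scaffolds held 121 models that passed the minimum, 62 of them not members. These 62 had a median smaller ratio of 1.02 (quartiles 0.882 and 1.21, range 0.290 to 4.41), close to the 0.963 of all models that passed the minimum. A smaller ratio above 2 was found for 5 of the 62 (8.06%), against 2.02% of all models that passed the minimum. The 59 members themselves are among the models in that second share, and the non-members were capped at 5 by the rule.

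Of these 5 neighbours, named after their values were seen, the highest ratio was that of maker-scaffold35000-snap-gene-0.11, with 29 reads in hem40, 0 in hem37 and 5 in hem39 (smaller ratio 4.41). Next came maker-scaffold41255-snap-gene-0.29, with 363.98 reads in hem40, 0 in hem37 and 80.59 in hem39 (smaller ratio 3.69). Both missed the rule on their ratio over hem39 alone. After these came maker-scaffold4264-snap-gene-2.1, with 21 reads in hem40, 5 in hem37 and 5 in hem39 (smaller ratio 3.21). The model evm-scaffold13204-processed-gene-0.41 was well counted in all libraries, with 1189.40 reads in hem40, 119.56 in hem37 and 340.66 in hem39 (smaller ratio 2.87). The lowest of the 5 was snap_masked-scaffold221867-processed-gene-0.0, with 117.21 reads in hem40, 46.88 in hem37 and 29.10 in hem39 (smaller ratio 2.23). On scaffold41255 a further non-member, maker-scaffold41255-snap-gene-0.30, was at 0 in hem37 but higher in hem39 than in hem40, with 12.67 reads in hem40, 0 in hem37 and 30.75 in hem39. In all, 4 of the 62 neighbours (6.45%) were at 0 in hem37, against 0.322% of all models that passed the minimum. These 4 neighbours lay on 3 scaffolds. Of the 4, 3 lay on scaffolds that also hold a member at 0 in hem37, as 16 of the 53 scaffolds do. With so few scaffolds, nothing is read from these counts.

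By the method named in the identifier, 36 of the 59 members (61.0%) were MAKER models on SNAP predictions, against 28.8% of all models that passed the minimum. Models named as processed SNAP predictions were fewer, with 7 on plain sequence (11.9%, against 25.9%) and 7 on masked sequence (11.9%, against 20.5%). There were 5 models from aligned transcripts (8.47%, against 12.6%), 3 from EVidenceModeler (5.08%, against 11.6%) and 1 from aligned proteins (1.69%, against 0.576%). The 3 EVidenceModeler members held 34.2% of the members' counts in hem40, nearly all of it in evm-scaffold84047-processed-gene-0.1. The kind of model changed with length, as described next, and its part in the members' counts was not tested.

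**Figure D4:**
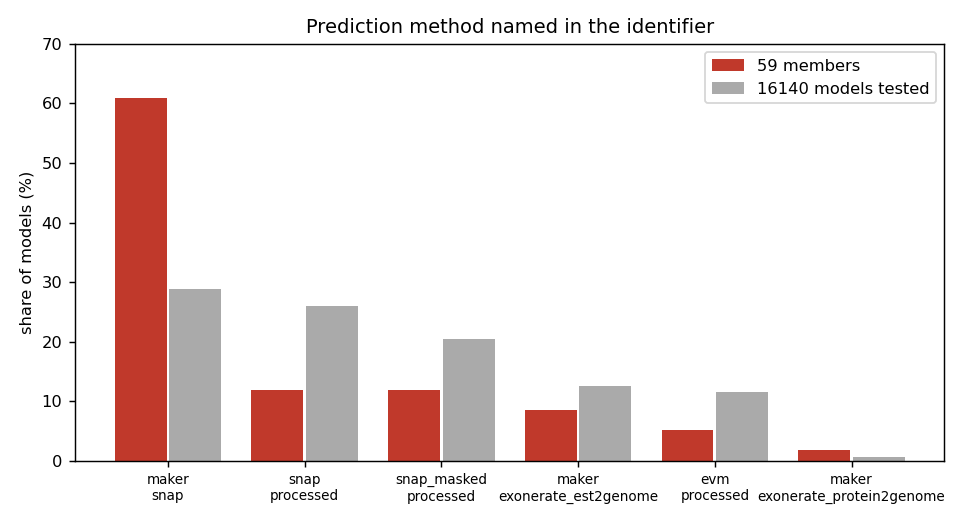
Share of models in percent by the prediction method named in the identifier, with a bar for the 59 members left of a bar for the 16140 models that passed the minimum. MAKER models on SNAP predictions made up 61.0% of the members and 28.8% of all models that passed the minimum.

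At the minimum used here, the members were longer than the models that passed it. With no minimum, the 225 models that met the ratios had a median of 459 bases. The median length of the 59 members was 1351 bases (quartiles 503 and 2875.5, range 204 to 24632), against 636 bases (387 and 1383, range 66 to 24632) for all models that passed the minimum. Models of 1500 bases or more made up 47.5% of the members, against 22.7%, and models under 500 bases made up 25.4%, against 38.2%. A longer model gathers more reads at the same level, and both the minimum and the rule act on counts. The part of this in the members' length was not tested. Among models of 1500 bases or more, MAKER models on SNAP predictions were 53.6% of the members and 51.8% of all that passed the minimum. Among those of 500 to 1500 bases the shares were 68.8% and 35.7%, and among shorter ones 66.7% (10 of 15 members) and 8.01%. Of the 15 members under 500 bases, 8 were at 0 in hem37, against 19 of all 59 members (32.2%). The share among all models under 500 bases was not computed. A high ratio favours counts of 0, so nothing is read from this split. More than 1 transcript was annotated for 1 member (1.69%), against 1.46% of all models that passed the minimum.

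RSEM divides a read that matches several transcripts between them, and its posterior SD of the count measures how uncertain that division is. A posterior SD of 0 marks models with no shared reads: where it was 0 in hem40, 100% of the 6144 counts were whole within 0.005 reads. Where it was above 0, 10.1% of 14697 were. Counts of 0 were left out of the first set but not of the second. At the minimum used here, shared reads were less frequent among the members. The posterior SD was 0 in all 3 libraries for 39 of the 59 members (66.1%), against 32.4% of all models that passed the minimum. It was above 0 in hem40 for 20 members, and it exceeded 10% of the hem40 count for 5 (8.47%, against 16.6%). The share over 10% depended on the setting, at 43.6% with no minimum, 22.9% without hem37 and 19.1% without hem39. The share over all models was not computed at these settings.

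RSEM also gives an interval for each TPM, at a level that the files do not state. The hem40 interval lay above those of hem37 and hem39 for 55 of the 59 members, against 12.5% of all models that passed the minimum. The intervals rest on the counts that chose the members and are given as a description. They overlapped for 4 members, all with a posterior SD over 10% of the hem40 count.

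For 3 of these 4 the expected count was 0 in both other libraries while the posterior mean count was not. The highest posterior SD share was that of snap_masked-scaffold2730-processed-gene-0.12, at 54.2%, with an expected count of 44.63 in hem40, 0 in hem37 and 0 in hem39. Its posterior mean count was 54.39 (posterior SD 24.20) in hem40, 14.84 (12.76) in hem37 and 14.03 (12.82) in hem39. Its reads in all 3 libraries could thus be assigned in other ways.

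For maker-scaffold141865-exonerate_est2genome-gene-0.0 the expected count was 40.78 in hem40, 0 in hem37 and 0 in hem39. Its posterior mean was 24.76 (posterior SD 16.86) in hem40, 13.65 (12.60) in hem37 and 9.61 (9.94) in hem39. For maker-scaffold13204-snap-gene-0.40 the expected count was 64.16 in hem40, 0 in hem37 and 0 in hem39, with a posterior mean of 63.94 (posterior SD 19.51) in hem40, 9.96 (8.55) in hem37 and 6.98 (6.07) in hem39. In hem40 the posterior mean lay below the expected count for scaffold141865 and close to it for scaffold13204. The fourth, maker-scaffold913-snap-gene-0.0, had a posterior mean of 34.27 (10.15) in hem40, 10.71 (7.24) in hem37 and 5.05 (4.13) in hem39. Bounds of the fold computed from expected counts of 0 do not include this uncertainty.

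**Figure D5:**
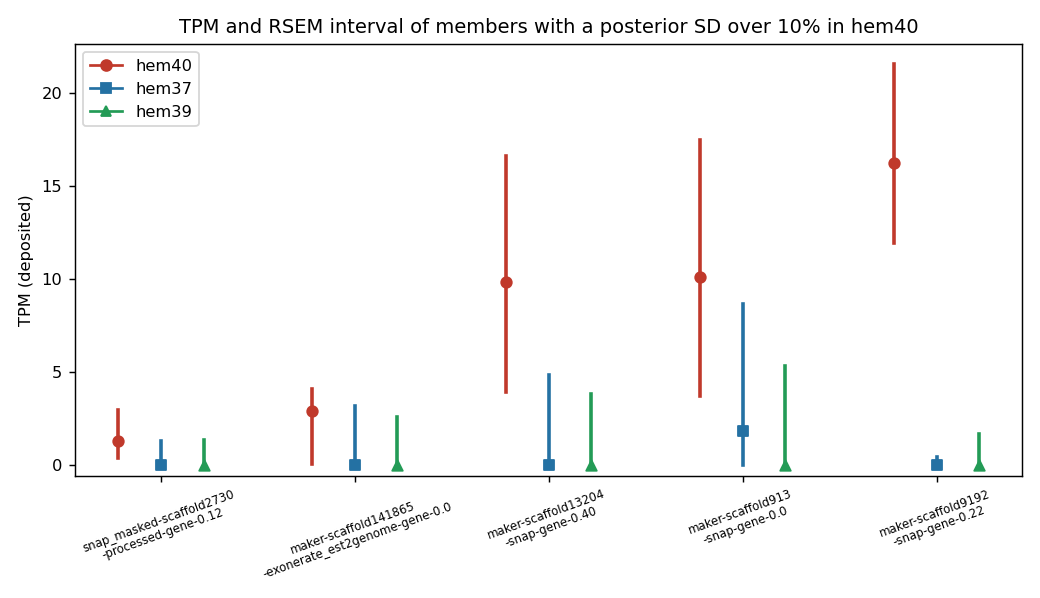
TPM (marker) and RSEM interval (bar) in hem40, hem37 and hem39 for the 5 members whose posterior SD exceeded 10% of the hem40 count. The hem40 bar overlaps another library's bar for the first 4 models and stands apart only for maker-scaffold9192-snap-gene-0.22.

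Where reads are divided between only 2 models, their posterior SDs match and their counts add up to whole reads. Of 18 members with a posterior SD of at least 0.8 reads in hem40, 8 had a model on the same scaffold whose posterior SDs matched in all 3 libraries, within 1% plus 0.03 reads, and every such pair summed to whole counts. Such a sum does not depend on the division of reads within the pair. The pair of members on scaffold9192, gene-0.21 and gene-0.22, summed to 688 reads in hem40, 0 in hem37 and 24 in hem39, a smaller ratio of 23.1. The 2 members on scaffold10516 summed to 116 in hem40, 11 in hem37 and 16 in hem39 (5.80).

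With partners that were not members, the sums differed. The member maker-scaffold35000-snap-gene-0.9 and its partner summed to 232 reads in hem40, 15 in hem37 and 29 in hem39 (6.47), and the sum still met the ratios. For maker-scaffold13204-snap-gene-0.40 and its partner, evm-scaffold13204-processed-gene-0.42, the sum was 1711 reads in hem40, 818 in hem37 and 787 in hem39, a smaller ratio of 1.79. The member held a small portion of that pair's reads, and the pair as a whole did not meet the rule. For snap-scaffold68548-processed-gene-0.9 the sum with its partner was 2206 in hem40, 1331 in hem37 and 2160 in hem39 (0.839). The posterior SD of that member was only 0.85 reads in hem40, 0.14 in hem37 and 0 in hem39. Its partner held 1232.73 reads in hem40, 1297.98 in hem37 and 2085 in hem39. This sum thus says little about the member's own count.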

How the data were processed

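Total RNA of 3 marbled crayfish hemocyte libraries was sequenced, and 1 gene table per library was used. The expected counts, the estimated counts per model, were made by the authors with RSEM, as were the TPM values scaled by effective transcript length, both deposited unaltered here. The deposited posterior SDs and TPM interval bounds (used as a score of read assignment) also come from RSEM. The submitters' processing notes name RSEM 1.2.30 and HISAT2 2.0.4. The role of HISAT2, the genome build and the annotation release are not given in the sources used here. Replicates were numbered in accession order (hem37 1, hem39 2, hem40 3), and no column of another series was present (0).

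Depth was 17367967 to 21143354 expected counts per library, where a floor of 3 counts is 0.142 CPM in hem40, 0.158 CPM in hem37 and 0.173 CPM in hem39. Counts plus 0.5 were divided by library totals, and members needed ratios over 5 and a mean of at least 10. Folds in the text used counts without the added 0.5, with 95% exact (Clopper-Pearson) intervals on counts rounded to whole numbers. Scaffold and model type were read from identifiers. The ratio script was tested on simulated data. Expected counts were rounded for TMM factors (edgeR 4.0.16) and DESeq2 1.42.0 size factors in R 4.3.3. Other steps used Python 3.11.15, numpy 2.4.6, pandas 2.3.3, scipy 1.17.1 and matplotlib 3.10.9. No test was run, since the contrast chose the members.

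Models were named by rule: the 5 highest hem40 TPM, the 3 largest smaller ratios, scaffolds with 2 or more members, the 3 highest posterior SD shares, members with more than 1 transcript, and the 2 models on each side of the threshold. Others are marked in the text or named as partners in shared reads. The members and rules were chosen with earlier results of these data known. Alternatives were fold thresholds of 3 and 10, other minimums, an added count of 5, TMM and DESeq2 scaling, TPM plus 0.1, counts shifted by 2 posterior SDs, and leaving out a library. Posterior mean counts were added after seeing the data. No sequences, positions or gene names were used.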

Additional observations from a re-analysis of the deposited data

How the results depend on the processing

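The 59 members became 125 at a fold threshold of 3, 32 at 10, 225 with no minimum count and 28 at a minimum mean of 50, and leaving out hem37 or hem39 gave 141 to 201. Their share of hem40 counts (0.731%) was 1.82% at a fold of 3, 0.109% at 10, 0.737% with no minimum, 0.722% at a minimum of 50, 0.722% with an added count of 5, 0.724% with TMM or DESeq2 scaling, 0.727% with TPM plus 0.1, and 0.787% to 1.37% without 1 library. The share of members on scaffolds with another member (18.6%) was 9.38% at a fold of 10, 7.14% at a minimum of 50, 10.2% with no minimum, 13.7% with TMM or DESeq2 scaling (pairs on scaffold62967 and scaffold10516 lost), 11.1% with TPM plus 0.1 (the pair on scaffold35000 lost too), and 10.4% to 17.02% without 1 library. Their median length (1351 bases) was 459 with no minimum and 924 to 942 without 1 library. The share with a posterior SD over 10% (8.47%) was 43.6% with no minimum, 0% at a minimum of 50, 1.96% with counts shifted by 2 posterior SDs, and 19.1% to 22.9% without 1 library. Of the 59 members, 51 stayed with TMM and the same 51 with DESeq2 scaling, 42 with an added count of 5, 45 with TPM plus 0.1, 51 with counts shifted against membership by 2 posterior SDs, and 56 with posterior mean counts. That shift turned the log2 smaller ratio below 0 for maker-scaffold141865-exonerate_est2genome-gene-0.0 (-1.92), maker-scaffold913-snap-gene-0.0 (-0.73) and snap_masked-scaffold2730-processed-gene-0.12 (-5.99). Leaving out hem40 gives no value, since the rule needs it. No paired analysis was possible because there is only 1 group of libraries here. Depth limits members at 0 in another library to lower bounds, and no library was repeated.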

Other observations

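Below the minimum mean count of 10, 166 of 4233 models with any count met the same ratios for hem40. They had a median of 5 reads in hem40 and at most 23, and 141 of them were at 0 in both other libraries. Of the 166, 4 lay on a scaffold that holds a member. The same share over all models below the minimum was not computed, so this is not called few or many. Among these, named after their values were seen, evm-scaffold118192-processed-gene-0.15 had 14 reads in hem40, 0 in hem37 and 1 in hem39, and maker-scaffold5270-snap-gene-0.1 had 14.2 reads in hem40, 0 in hem37 and 0 in hem39. The second shared reads with the member snap-scaffold5270-processed-gene-0.6, and the pair summed to 53 reads in hem40, 0 in hem37 and 0 in hem39.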
